A study of Caenorhabditis elegans with 2 samples.

Results

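The genes described here encode translation initiation and elongation factors of Caenorhabditis elegans, and the question was which of them carried binding of the homeodomain protein DVE-1 close to their start. Members were all protein-coding genes whose Ensembl name begins with eif-, eef-, iff-, ife- or ifg-, which gave 39 of 19973 protein-coding nuclear genes, 33 with the name of an initiation factor and 6 with the name of an elongation factor. Binding was measured by ChIP-seq with an anti-GFP antibody in whole hermaphrodites at the late embryonic stage, with 2 biological replicates and no second group. Both replicates were strain OP398, with the genotype unc-119(tm4063) III; wgIs398, in which a stably inherited transgene makes DVE-1 with GFP and FLAG at its C terminus. It is 1 transgenic line, and the labels do not say whether the untagged dve-1 gene was also active. Whole animals mix all tissues, so weak binding in many cells and strong binding in few cannot be told apart. The reads of both replicates together gave a pooled list of 30000 peaks and background regions, of which the 1447 strongest passed the authors' reproducibility filter (IDR, irreproducible discovery rate) and are called thresholded. The authors give each peak a summit and a signal, a value for the strength of the peak; the labels and headers do not state its scale.

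Translation starts when initiation factors bring the initiator tRNA, the small ribosomal subunit and the capped mRNA together and locate the start codon. Elongation factors then act in every cycle of peptide growth, as eEF1A delivers aminoacyl-tRNA, the eEF1B complex recharges eEF1A with GTP, and eEF2 moves the ribosome along the message. These factors are housekeeping proteins of growing cells, and phosphorylation of the initiation factor eIF2 slows protein synthesis under many stresses. DVE-1 is best known from the mitochondrial unfolded protein response of the worm. The name rule also takes in eif-4A3, an RNA helicase of the exon junction complex that is known for its part in mRNA processing and not as an initiation factor, and eif-6, which keeps ribosomal subunits apart.

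The sequences below are those on which the description of the elongation factor genes and of the strongest summit turns, except that of eef-2, which is not shown. Each runs 5′ to 3′ on the strand of its gene, on the ce11 build, over 121 bp centred on the thresholded summit, except that of eef-1B.1, whose summit lay in the 5′ UTR and which is cut to 30 bases. Capitals mark words of at least 11 bases that also occur, on either strand, within 100 bp of another member's summit. The eef-1A.2 sequence is chrX:7823243-7823363 (plus strand), eef-1G is chrV:10965617-10965737 (plus), and eef-1A.1 is chrIII:6972035-6972155 (minus). Those of eef-1B.2 and eef-1B.1 are chrIV:15037105-15037225 (plus) and chrIII:7973356-7973385 (minus). The initiation factor genes are shown by iff-2, chrII:8561373-8561493 (minus), and eif-3.B, chrII:14795072-14795192 (plus).
eef-1A.2: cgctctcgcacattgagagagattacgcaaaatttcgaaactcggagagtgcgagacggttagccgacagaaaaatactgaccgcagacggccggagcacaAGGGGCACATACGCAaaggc
eef-1G: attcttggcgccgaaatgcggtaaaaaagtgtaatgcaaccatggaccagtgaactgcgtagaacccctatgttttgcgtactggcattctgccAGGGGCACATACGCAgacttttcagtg
eef-1A.1: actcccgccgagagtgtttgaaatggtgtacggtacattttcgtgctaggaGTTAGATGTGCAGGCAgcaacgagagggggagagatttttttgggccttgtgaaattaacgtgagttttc
eef-1B.2: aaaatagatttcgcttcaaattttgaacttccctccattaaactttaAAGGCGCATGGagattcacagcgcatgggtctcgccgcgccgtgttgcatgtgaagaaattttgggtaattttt
eef-1B.1: tgctcgtttgAAGGCGCATGGggtttcgac
iff-2: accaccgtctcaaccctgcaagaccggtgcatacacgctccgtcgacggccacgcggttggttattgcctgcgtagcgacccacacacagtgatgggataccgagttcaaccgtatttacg
eif-3.B: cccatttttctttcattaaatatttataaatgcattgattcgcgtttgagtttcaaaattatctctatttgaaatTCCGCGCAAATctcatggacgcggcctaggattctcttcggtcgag

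Thresholded summits lay at 13 of the 39 factor genes (33.3%), in a window that reached 1000 bp before and 200 bp past the gene's 5′ end, against 4.33% of all protein-coding nuclear genes. All 6 elongation factor genes had one, and 7 of the 33 initiation factor genes (21.2%) did. Genes with an eif-3 name, for subunits of the largest initiation factor complex, had a thresholded summit at 4 of 11, the eIF5A genes at 1 of 2 and the genes of eIF2B at 1 of 5. The counts were 0 of 3 for the subunits of eIF2, 0 of 5 for eIF4E and 0 of 2 for the genes of eIF1 and eIF1A. These are counts of genes in 1 pair of libraries, and no test between the classes was made. In the unfiltered pooled list 33 of the 39 genes (84.6%) had a summit in the window, where 41.5% of all genes did, since that list reaches into background.

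**Figure D1:**
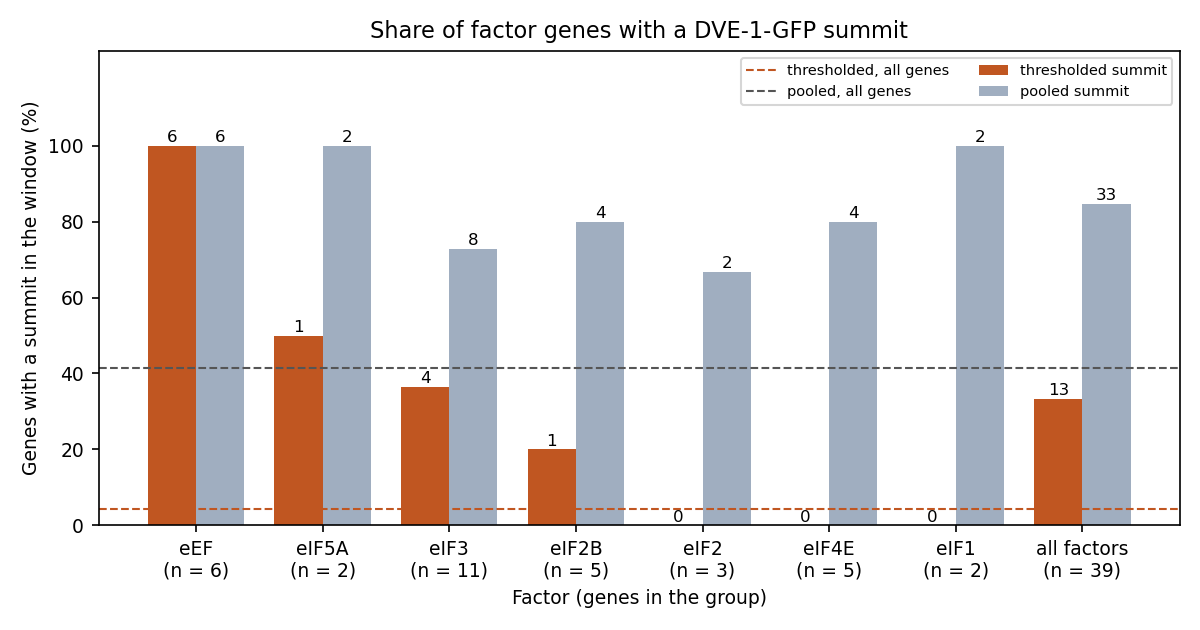
Share of genes (%) with a thresholded summit (orange) or a pooled summit (grey) in the promoter window, for groups of translation factor genes, with the number of genes that had one above each bar and the share over all protein-coding nuclear genes as dashed lines (4.33% and 41.5%). All 6 elongation factor genes had a thresholded summit, against 4 of 11 for eIF3 and 0 of 5 for eIF4E.

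The elongation factor genes were led by eef-1G (chromosome V, 10965719 to 10967922), which encodes the gamma subunit of eEF1B. Its summit stood 42 bp upstream of the gene, with a signal of 84.1 in replicate 1, 91.1 in replicate 2 and 179.6 in the pooled list, rank 209 of the thresholded list. Both replicates therefore placed it among their own stronger peaks, at ranks 141 and 330. The divergent gene ctf-4 had its 5′ end 138 bp from the same summit, farther than eef-1G.

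The genes eef-1A.1 (chromosome III, 6970026 to 6971712) and eef-1A.2 (chromosome X, 7823654 to 7825769) both encode eEF1A and had summits at similar distances. That of eef-1A.2 lay 351 bp upstream, with signals of 51.6 in replicate 1, 105.8 in replicate 2 and 158.9 in the pooled list (rank 278). Its signal in replicate 2 was far above that in replicate 1, the largest ratio among the elongation factor genes after that of eef-1B.1. The eef-1A.1 summit lay 383 bp upstream, with 65.2, 72.9 and 140.5 (rank 397). It was nearer to rfc-4, a divergent gene for a subunit of the clamp loader of DNA replication, at 158 bp, so the data do not say to which of the pair it belongs. Neither peak held a word of 36 bases that occurs elsewhere in the genome, so both eEF1A summits lie in sequence that reads of that length can tell apart; the labels do not state the read length.

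The remaining exchange factor genes stood close to the lower edge of the thresholded list. At eef-1B.2 (chromosome IV, 15037331 to 15039551) the summit was 166 bp upstream, with signals of 36.2 in replicate 1, 50.9 in replicate 2 and 84.9 pooled (rank 1258). The eef-1B.1 summit (gene at chromosome III, 7972382 to 7973386) lay 18 bp downstream of the 5′ end, in the 5′ UTR, with 25.9, 57.1 and 83.98 (rank 1284). In replicate 1 it was only at rank 2892, outside that replicate's 1447 strongest peaks. Its summit was shared with aco-2, the divergent gene for mitochondrial aconitase, 349 bp away, and it also lay within the non-coding RNA gene F54H12.9.

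The gene of the translocation factor eEF2, eef-2 (chromosome I, 9163531 to 9166952), had its summit 10 bp downstream of the 5′ end, in the 5′ UTR. The signals were 73.1 in replicate 1, 72.6 in replicate 2 and 147.8 pooled, at rank 335, nearly equal in the replicates. The divergent gene clsp-1 began 275 bp away. Over the 6 elongation factor genes the pooled signals ran from 83.98 to 179.6.

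**Figure D2:**
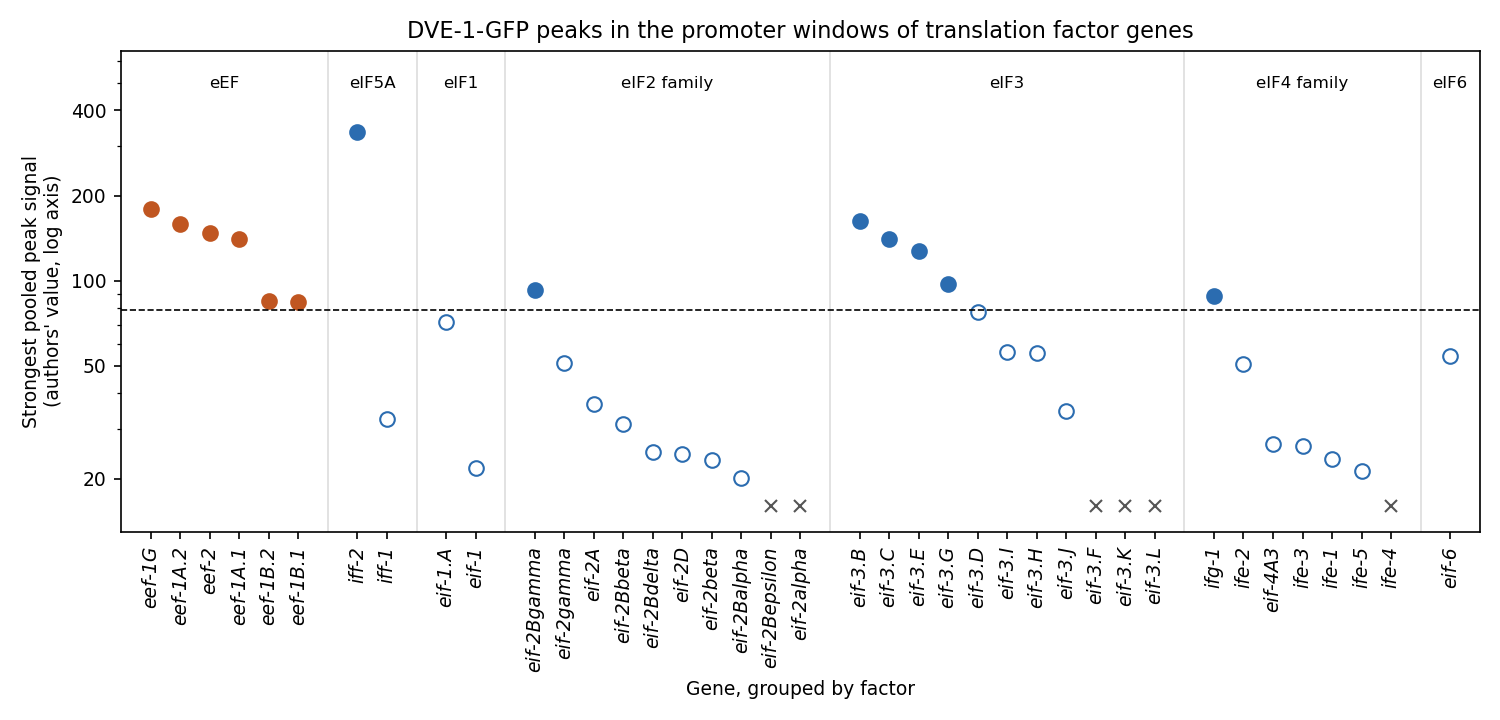
Signal of the strongest pooled peak in the promoter window of each of the 39 genes (log axis), grouped by factor; orange points are elongation factor genes, blue points initiation factor genes, filled points have a thresholded summit, open points a pooled summit only, and crosses no pooled summit. The dashed line is the lowest thresholded signal, 78.9, and all 6 elongation factor genes stand above it, from 83.98 to 179.6, while iff-2 is highest at 336.9.

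The strongest summit of the 39 genes was at iff-2 (chromosome II, 8559375 to 8561367), 66 bp upstream. It encodes eIF5A, a factor named for initiation and known to help elongating and terminating ribosomes. Its signal was 126.3 in replicate 1, 210.6 in replicate 2 and 336.9 pooled, at ranks 43, 22 and 25 of their lists. The peak was 150 bp wide, narrower than the common width shared by 1406 of the 1447 thresholded peaks. The other eIF5A gene, iff-1, is known for a role in the germline; it had no thresholded summit and a pooled signal of 32.4 (rank 9526), with no replicate 1 peak. That it is below each of the 13 thresholded summits follows from the filter, since the thresholded peaks are the 1447 strongest of the pooled list. A divergent gene, F54C9.14, lay 869 bp from the iff-2 summit.

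Among initiation factor genes, the next 4 signals after iff-2 were all at eIF3 genes, which encode subunits of the scaffold on the small ribosomal subunit. At eif-3.B (chromosome II, 14795404 to 14798235) the summit was 272 bp upstream, with signals of 74.8 in replicate 1, 87.9 in replicate 2 and 162.2 pooled (rank 267), and no other coding gene had it in its window. The summit of eif-3.C (chromosome I, 9976426 to 9979662) was 230 bp upstream with 64.6, 75.7 and 140.9 (rank 391). That of eif-3.E (chromosome I, 10640465 to 10642281) was 186 bp upstream with 55.4, 70.02 and 126.9 (rank 506). All 3 were among the 1447 strongest peaks of each replicate. The eif-3.G summit (gene at chromosome II, 8442767 to 8444175), 327 bp upstream, was weaker and less even, with 32.03 in replicate 1, 66.2 in replicate 2 and 97.1 pooled (rank 945).

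The other 7 genes with an eif-3 name had no thresholded summit. The eIF3 subunit genes egl-45 (eIF3a) and cif-1 (eIF3m), which the name rule does not take in, had none either, with a pooled signal of 51.7 at egl-45 and no pooled summit at cif-1. The strongest factor gene outside the list was eif-3.D, with a pooled signal of 77.8 at rank 1487, just below the lowest thresholded signal of 78.9. The weakest inside it was eef-1B.1 at 83.98. Pooled signals were 56.1 at eif-3.I, 55.5 at eif-3.H and 34.7 at eif-3.J, whose summit was 910 bp upstream. No pooled summit lay in the windows of eif-3.F, eif-3.K and eif-3.L. The absence of a listed peak says only that none was reported there.

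Among the genes that act on the initiator tRNA, the thresholded list held only the summit assigned to eif-2Bgamma (chromosome II, 6965800 to 6967648), a subunit of the exchange factor eIF2B. Its values were 52.99 in replicate 1, 39.7 in replicate 2 and 92.5 pooled (rank 1070). The summit was 887 bp upstream, within C15F1.5, in a small nuclear RNA gene (sup-39) and in a second annotated small RNA, mir-1831. Of the words of 36 bases in this peak, 28.3% occur elsewhere in the genome, whereas the other 12 peaks held 0 such words. Of coding genes, eif-2Bgamma had the 5′ end nearest to this summit.

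The subunits of eIF2 were weak or unlisted. The gene of the GTP-binding subunit, eif-2gamma, had a pooled signal of 51.4 at rank 3386, with 28.5 in replicate 2 and no replicate 1 peak, and eif-2beta had 23.3, 965 bp upstream. No list held a summit in the window of eif-2alpha, the subunit that is phosphorylated under stress. Of the other eIF2B genes, eif-2Bbeta (31.3, rank 10320), eif-2Bdelta (24.8, rank 17734) and eif-2Balpha (20.03, rank 27486) had pooled summits only below the threshold, and eif-2Bepsilon had only a replicate 1 peak, with signal 22.7. The genes eif-2A and eif-2D, for alternative carriers of the initiator tRNA, stood at 36.6 and 24.3.

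Genes for cap recognition were mostly unbound by this measure. The scaffold eIF4G gene ifg-1 (chromosome II, 8217222 to 8222396) had a thresholded summit 670 bp upstream, with 39.1 in replicate 1, 54.2 in replicate 2 and 88.3 pooled (rank 1158). That summit was in the 5′ UTR of the divergent gene M110.3, 64 bp from its 5′ end and so much nearer to M110.3. The 5 genes for the cap-binding protein eIF4E had none: pooled signals were 50.9 at ife-2, 26.1 at ife-3, 23.5 at ife-1 and 21.4 at ife-5, and ife-4 had no pooled summit. Of the genes of start codon scanning, eif-1.A reached 71.6 (rank 1767), with 32.8 in replicate 1 and 41.2 in replicate 2, and eif-1 reached 21.7. The pooled signals of eif-6 and eif-4A3 were 54.4 and 26.5.

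All 13 thresholded summits lay inside a peak of each replicate, as did 1416 of all 1440 nuclear thresholded summits. The replicates' own summits were at most 45 bp from the 13. Of the 13, 11 were among the 1447 strongest peaks of replicate 1, 12 among those of replicate 2 and 10 in both. The matching shares over all thresholded summits were not computed. Signals ran from 25.9 to 126.3 in replicate 1 and from 39.7 to 210.6 in replicate 2. They were higher in replicate 2 at 11 of the 13 summits, beside 86.5% of the 1416 nuclear thresholded summits found in both lists. The median ratio was 1.26, beside 1.47 over those 1416. The lists were made separately, and their scales may differ. Over all 39 genes, 26 had any replicate 1 summit in the window (66.7%, against 22.5% of all genes) and 23 a replicate 2 summit (58.97%, against 26.8%). Of the 26 genes with no thresholded summit, 7 had a peak in both replicates and 10 in neither. The shares over all genes without a thresholded summit were not computed, so these counts have no background beside them.

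**Figure D3:**
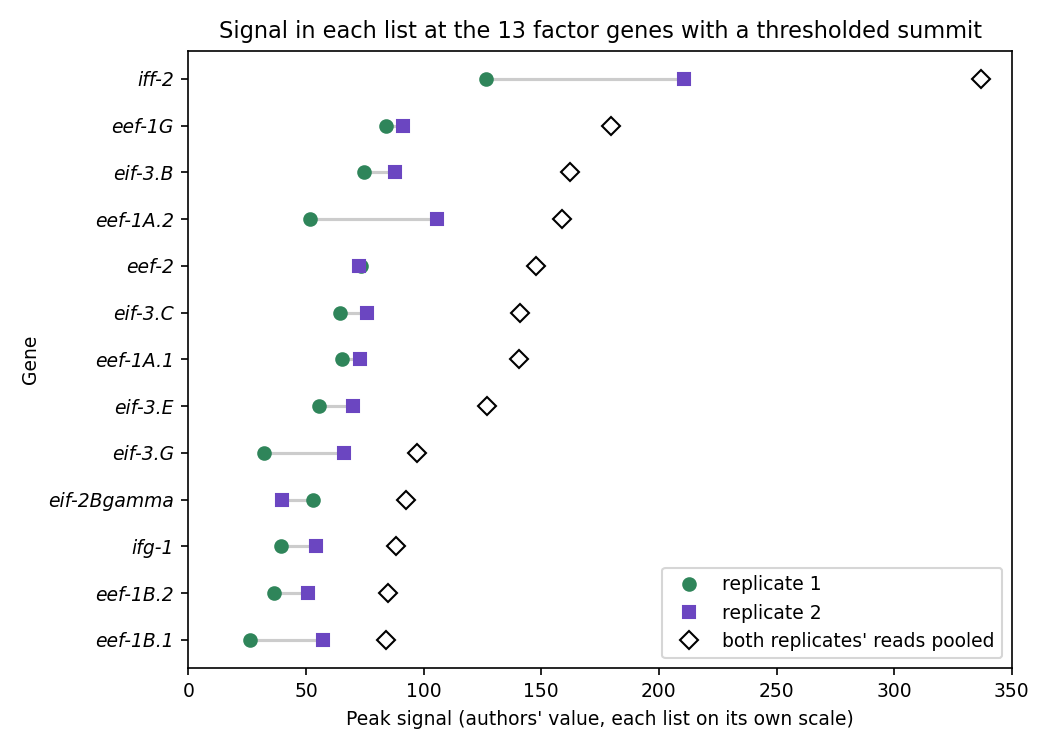
Peak signal at the 13 factor genes with a thresholded summit, in replicate 1 (circles), replicate 2 (squares) and the pooled list (diamonds), each list on its own scale and joined by a line between the replicates. The iff-2 peak was strongest in each, at 126.3, 210.6 and 336.9. Replicate 2 was higher at 11 of 13 genes, beside 86.5% of all nuclear thresholded summits found in both replicates' lists.

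Thresholded summits at the factor genes had a higher median signal than those at genes in general, but the ranges overlapped widely. The factor genes' median was 140.5 over 13 distinct summits, beside 107.7 over all 639 thresholded summits in promoter windows. Signals ran from 83.98 to 336.9 at the 13 and from 78.9 to 444.1 over the 639. Of the 13, 8 (61.5%) were among the 723 strongest thresholded peaks, beside 47.4% of the 639. With 13 summits this share is coarse, and the difference was not tested. The summit lay upstream of the 5′ end at 11 genes and downstream at eef-2 and eef-1B.1. The median distance was 230 bp upstream, beside 264 bp over all 865 genes with a thresholded summit, and 9 of the 13 (69.2%) were within 400 bp upstream, beside 65.5%. Positions were thus close to those at other genes. The far summits were those of eif-2Bgamma and ifg-1, both described above as nearer to, or inside, another gene.

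**Figure D4:**
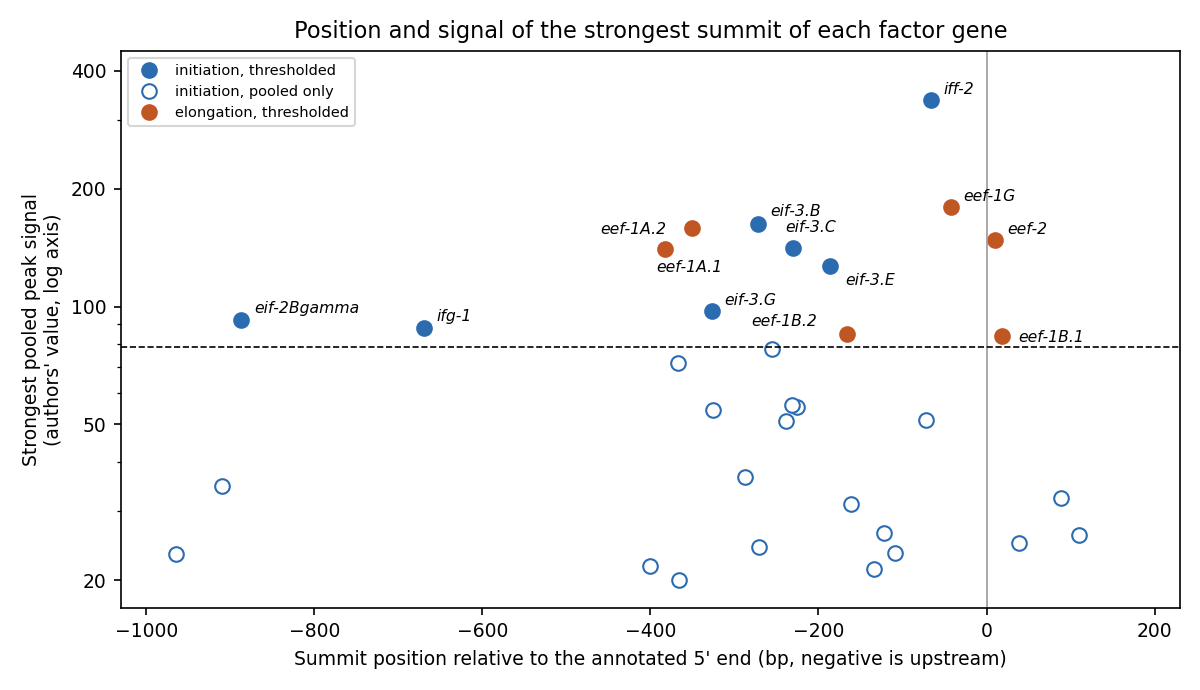
Position of the strongest pooled summit of each factor gene relative to the annotated 5′ end (bp, negative upstream) against its signal (log axis); filled points have a thresholded summit, open points a pooled summit only, and the dashed line is the lowest thresholded signal, 78.9. Apart from ifg-1 (670 bp) and eif-2Bgamma (887 bp), the thresholded summits stood between 383 bp upstream and 18 bp downstream.

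Some of these summits were shared with a neighbour. At 7 of the 13 (53.8%) the same summit lay in the window of a second coding gene, beside 33.8% of all 639 promoter summits. With 13 summits this share is coarse, and the difference was not tested. In all 7 cases the neighbour was divergent, but the divergent share over all shared promoter summits was not computed. Elongation factor genes made up 4 of these 7, with ctf-4, clsp-1, rfc-4 and aco-2 as partners. The factor gene had the nearest 5′ end of any coding gene at 11 of the 13 summits, the exceptions being eef-1A.1 and ifg-1. A matching share over all promoter summits was not computed. With each summit given only to its nearest gene within 2000 bp, 11 factor genes remained (28.2%), 5 of them for elongation, beside 4.67% of all genes. Worm genes are often trans-spliced or joined in operons, and transcription may then begin elsewhere than at the annotated 5′ end. A coding gene on the same strand ended within 500 bp upstream of 3 of the 13 genes with a thresholded summit (eef-1B.2, eif-2Bgamma and eif-3.C) and of 4 of the 26 without (eif-2alpha, eif-2gamma, eif-3.F and ife-5). The shares over all genes were 12.1% with a thresholded summit and 19.0% without. This description was chosen after the peaks were seen. The first gene of the close row upstream had a thresholded summit at none (0) of those 4, nor at eef-1B.2 or eif-2Bgamma. At eif-3.C it did: the upstream gene sys-1 had a thresholded summit of its own, with signal 82.8. Since only 4.33% of all protein-coding nuclear genes had one, 0 of 4 says little.

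The sequences at elongation factor summits shared long words. The 16 bases in capitals in the eef-1A.1 sequence, centred 2 bp from its summit, recur at eef-2, 9 bp from that summit. At eef-2 they are in the opposite orientation relative to the gene and span the annotated 5′ end. The copy at eef-1A.1 lies 385 bp upstream of that gene and nearer to the divergent gene rfc-4, 156 bp upstream of it. The 15 bases in capitals at eef-1A.2 recur in the same orientation at eef-1G, centred 48 bp and 41 bp from the summits. They are centred 303 bp upstream of eef-1A.2, but at eef-1G they too span the annotated 5′ end. The printed eef-1G sequence runs 19 bases past that end. An 11-base word was shared by eef-1B.1 and eef-1B.2, 2 bp and 8 bp from their summits, but words of that length are common, with 121 copies in the genome. Altogether 7 pairs of factor genes shared at least 11 bases, 3 of them pairs of elongation factor genes. The others each included an eIF3 gene: eif-3.B with eif-3.C, eif-3.C with eif-3.G, eif-3.C with eef-1B.1, and eif-3.E with eef-1B.2. Their 11-base words have 63, 111, 111 and 407 copies. The capitals in the eif-3.B sequence mark the word shared with eif-3.C. Over the 78 pairs of factor gene summits the longest shared word had a median of 8 bases, and 2 pairs (2.56%) shared 15 or more, both of them among the 15 pairs of elongation factor genes. Over all pairs of thresholded promoter summits with separate windows the share was 0.696%. This search was made after the peaks were seen, and no test was run on it.

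Both long words are rare, and most of their copies were under DVE-1-GFP peaks. The word of eef-1A.1 and eef-2 has 4 copies in the nuclear genome, 3 of them in thresholded peaks; the third was 381 bp upstream of rpl-11.2, a ribosomal protein gene, 24 bp from a summit of signal 184.6. The fourth was 203 bp upstream of pbs-1, a proteasome subunit gene, under a pooled peak of signal 57.03. The word of eef-1A.2 and eef-1G has 5 copies, 4 of them in thresholded peaks. Besides the pair itself, 2 copies lay 337 bp and 380 bp upstream of icd-1, which encodes the beta subunit of the nascent polypeptide-associated complex, both in 1 peak of signal 173.4. The remaining copy was in no listed peak. Thresholded peaks cover 0.515% of the nuclear genome, but the words were picked because they occur in pairs of these peaks. Only the copies outside the 4 elongation factor genes are free of that choice. Of these 5 copies, 3 were in thresholded peaks, but 2 of the 3 lay together in the icd-1 peak. The copies are thus not independent, and too few to set against that share.

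The short motifs searched were scarce at these summits. Both strands were searched within 100 bp of each of the 13 summits. The motifs were CTGCGTCT, the GA repeat GAGAGAGA, the homeodomain core TAATTA, the E-box CACGTG, the CRE TGACGTCA, the palindrome TTGCGCAA, the E2F-like TTTCCCGC and a telomere-like doublet of TTAGGC. The only match was GAGAGAGA at eef-1A.2, so 1 of 13 windows (7.69%) held it, beside 11.3% of the 1440 nuclear thresholded summits and 2.73% of windows of that length ending at the 5′ ends of all coding genes. Of the 639 thresholded summits in promoter windows, 9.23% held GAGAGAGA. CTGCGTCT was at 0 of 13, beside 14.9% of those 639 promoter summits, 14.3% of all thresholded summits and 2.78% of the windows at 5′ ends. The telomere-like doublet was at 0 of 13, beside 5.95%, 18.1% and 0.145% in the same order. For TAATTA the count was 0 of 13, beside 3.44%, 2.78% and 11.9%. The other 4 were at 0 of 13, at most 5.16% of promoter summits and at most 4.65% of all thresholded summits. With 13 windows these shares are coarse, and a missing match says only that these letters are not in the window. The median share of G and C was 42.8% at the 13 summits, beside 44.8%, 45.8% and 32.8%.

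Other genes of translation were taken from a list outside the name rule, chosen with earlier results of these data known. Where 4.33% of all protein-coding nuclear genes carried a thresholded summit, 4 of the 26 matched genes of the list did (15.4%). These were drr-2, a homologue of the eIF4A cofactor eIF4H (signal 215.6), pab-2, a poly(A)-binding protein gene (154.2), ifet-1, a repressor of translation that binds eIF4E (151.5), and abcf-2, an ABC protein gene of the family that acts on ribosomes (105.4, 875 bp upstream). The genes of the release factors, erfa-3 and erfa-1, had pooled signals of 71.9 and 49.9. At inf-1, which encodes eIF4A, the signal was 26.6. The eIF2 kinase genes gcn-2 and pek-1 stood at 56.8 and 35.7 and had no thresholded summit. Of mitochondrial elongation factor genes, tufm-1 (57.8) and tufm-2 (34.6) had pooled summits, while tsfm-1 and gfm-1 had none listed. No thresholded summit thus lay at a mitochondrial elongation factor gene of this list, where all 6 cytosolic ones had one; each mitochondrial group is small and the difference was not tested.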

How the data were processed

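Peak lists of both replicates were used as deposited on the ce11 build. Per the text deposited with the files, the authors called peaks for each replicate (11568 peaks in replicate 1, 15750 in replicate 2) and on both alignments together, with the same control alignment, and then thresholded by IDR. The peak signal is the authors' own value, and it was ranked and compared within a list. The peak caller, the aligner and the read totals are not stated in the labels or headers, so depth is unknown and no counting interval applies. Lists in ce10 were not used.

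Gene models were those of Ensembl (WBcel235, the ce11 sequence), and sequences came from the RefSeq copy of that assembly. A summit is the peak start plus the deposited offset. Every summit in a gene's window counted, so a summit can serve 2 genes. All members with a thresholded summit were named, with those up to pooled rank 5000 and those without a pooled summit; other members were added for completeness. The members, lists, motifs and alternatives were chosen with earlier results of these data known, and of the 34 genes in the list of other translation genes 8 matched no annotated name. No test was planned, as 1 group of 2 replicates gives none between conditions. Window assignment was tested on simulated summits. Python 3.11.15, numpy 2.4.6, pandas 2.3.3 and matplotlib 3.10.9 were used.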

Additional observations from a re-analysis of the deposited data

How the results depend on the processing

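The count of 13 factor genes with a thresholded summit stayed between 11 and 14 under 9 of 10 alternatives, while the share over all genes went from 3.29% (500 bp upstream to 100 bp downstream) to 6.19% (2000 bp upstream to 500 bp downstream). With only peaks at or above the median signal, 8 factor genes were left, 4 for initiation and 4 for elongation, beside 2.09% of all genes, and the median signal rose by construction to 153.4. Elongation factor genes numbered 6 with both other windows, and 5 with only the nearest gene or without replicate 2. Without replicate 1, the 1447 strongest peaks of replicate 2 gave 13 factor genes, 12 of them shared with the main result (eif-2Bgamma lost, eif-3.D gained). Without replicate 2, the 1447 strongest peaks of replicate 1 gave 11, and eef-1B.1 and eif-3.G were below that cut-off. The median signal in these sets was 72.6 without replicate 1 and 64.6 without replicate 2, on the lists' own scales. The narrow window lost eif-2Bgamma and ifg-1, and the wide window gained ife-3. Leaving out peaks within 200 bp of small nuclear RNA genes too, an alternative added after the data were seen, removed eif-2Bgamma only. Counting eIF5A with elongation gave 7 of 8 and 6 of 31. The planned comparison with ce10 lists was not run. Unknown depth limits what a missing peak can show.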
